A study of Mus musculus with 12 samples.

Results

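The constitutive proteasome was examined through the transcripts of its subunits in mouse spinal cord. Members were picked by gene symbol and a minimum level: every gene with a symbol of the form Psma, Psmb, Psmc or Psmd plus a number, leaving out Psmb8, Psmb9 and Psmb10, with a scaled count (CPM, counts relative to the library's scaled total) of at least 1 in at least 3 libraries. Of the 36 genes with such a symbol, 34 were kept, 14 of the core particle and 20 of the regulatory particle, out of 56953 genes with a row and 19278 tested. The 2 genes left out were Psma8, the testis form of an alpha subunit, which reached 1 CPM in 2 libraries, and Psmb11, the thymus form of a beta subunit, which reached it in 0. All 34 kept genes passed 1 CPM in all 12 libraries, so none entered through 1 group. Regulatory subunits with other symbols, such as Adrm1 and Sem1, lie outside the rule and are given with the factors that bind the proteasome. The tissue was spinal cord from mice whose Ddx20 alleles are flanked by loxP sites, combined with Plp-CreER, a Cre recombinase that acts in oligodendrocyte-lineage cells once tamoxifen is given. There were 4 groups of 3 mice: control at 4 weeks, conditional knockout (cKO) at 4 weeks, control at 4.5 weeks and cKO at 4.5 weeks after tamoxifen. The labels do not say whether the controls carried the Cre driver or which Ddx20 alleles they had, and they give no age. RNA of the whole cord also comes from cells in which the driver does not act.

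The proteasome degrades proteins that carry a ubiquitin chain. Its core particle is a barrel of stacked rings, in which alpha subunits form the gate and beta subunits line the chamber. Psmb5, Psmb6 and Psmb7 encode the chymotrypsin-like, caspase-like and trypsin-like proteases, and the other beta subunits are structural. The regulatory particle caps the barrel. Its base holds a ring of ATPases (Psmc genes) that unfold the substrate, the scaffolds Psmd1 and Psmd2, and the ubiquitin receptor Psmd4. Its lid holds scaffold subunits and the deubiquitinase Psmd14. Psmd5, Psmd9 and Psmd10 encode chaperones that help to assemble the base and leave the finished particle. Mammalian proteasome genes are known to be induced together, when proteasome activity is short, by the transcription factor NRF1, the product of Nfe2l1, which binds antioxidant response elements in their promoters. Interferon replaces the 3 proteases with the immunoproteasome forms Psmb8, Psmb9 and Psmb10.

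Because these genes are known as a co-regulated family, their promoters were searched for the core of that element, TGACNNNGC, and for the CCAAT box, each on both strands. RefSeq windows on GRCm38.p6 from 250 bases before to 50 after the transcription start were found for 28 of the 34 genes, in 30 windows (none for Psmb1, Psmb2, Psmb7, Psmc3, Psmd3 and Psmd7). TGACNNNGC stood in 5 of the 30 windows, or 16.7%, against 12.4% of all 32851 windows. CCAAT stood in 11 of the 30, or 36.7%, against 37.4% of all windows. The members' shares therefore lay near the shares of promoters in general. The 5 matches are shown because they belong to 2 protease genes and 3 regulatory genes described in the results, with the match in capitals, read along the gene's own strand. They lie at chr14:54617996-54618092 (Psmb5, minus strand), chr11:70525298-70525356 (Psmb6, plus strand), chr14:45329574-45329655 (Psmc6, plus strand), chr11:107479278-107479339 (Psmd12, plus strand) and chr5:123228109-123228189 (Psmd9, plus strand). In Psmc6 and Psmd12 the match is on the opposite strand.
Psmb5: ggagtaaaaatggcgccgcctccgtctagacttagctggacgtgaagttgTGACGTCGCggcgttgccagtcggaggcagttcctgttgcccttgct
Psmb6: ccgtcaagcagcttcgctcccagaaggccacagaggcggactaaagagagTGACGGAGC
Psmc6: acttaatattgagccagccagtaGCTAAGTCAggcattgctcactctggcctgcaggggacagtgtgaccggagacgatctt
Psmd12: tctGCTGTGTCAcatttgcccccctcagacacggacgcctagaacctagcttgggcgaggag
Psmd9: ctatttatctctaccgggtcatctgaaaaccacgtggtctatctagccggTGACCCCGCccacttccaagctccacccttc

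The 5 genes with a match did not move as 1 group. At 4.5 weeks Psmb5, Psmc6 and Psmd12 were called lower in cKO cord, while Psmb6 and Psmd9 were not called, with log2 fold changes of 0.17 ± 0.078 (standard error, SE) and 0.18 ± 0.087.

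The libraries held 33104560 to 47677267 counts each, and every member had at least 22.2 CPM in each of them except Psmd10, with 14.4 to 19.5 CPM. The level of Ddx20 transcript did not fall with the cKO label: controls at 4 weeks held 11.0, 9.78 and 11.1 CPM and cKO 10.2, 11.1 and 9.90 CPM. At 4.5 weeks controls held 9.16, 10.6 and 9.71 CPM and cKO 12.4, 11.1 and 13.3 CPM. Ddx20 was called higher in cKO at that time by edgeR (log2 fold change 0.33 ± 0.10, SE, adjusted p = 0.0134). The transcript level therefore does not check the genotype labels. Sex was uneven at 4 weeks, where the 3 controls had Y-linked counts, cKO libraries 1 and 2 had Xist counts and cKO library 3 had Y-linked counts. All 6 libraries of 4.5 weeks had Xist counts. A list of 6 Hox genes of the trunk cord summed to 324.6 to 367.5 CPM in every library except cKO at 4.5 weeks, where they summed to 165.8 to 184.2 CPM. Cell type markers moved with the genotype, beside 20.1% of all genes tested called higher and 17.2% lower at 4 weeks, and 33.3% and 32.6% at 4.5 weeks. Of 10 oligodendrocyte markers 10 were lower at 4 weeks and 9 at 4.5 weeks, and of 10 microglia markers 9 and 10 were higher. Of 10 neuron markers 4 were lower at 4 weeks and 10 at 4.5 weeks. None of these markers was at 0 in all controls. Of 8 astrocyte markers 1 was higher and 5 lower at 4 weeks, and 2 higher and 5 lower at 4.5 weeks. Of 6 oligodendrocyte progenitor markers 3 were higher and 2 lower at 4 weeks, and 6 higher at 4.5 weeks. All 5 blood and 5 of 6 skeletal muscle markers were lower at 4.5 weeks, and 0 of either were called at 4 weeks. Of 6 Schwann cell markers 1 was lower at 4 weeks and 3 at 4.5 weeks, and of 6 endothelial markers 1 was lower at 4 weeks and 2 were higher at 4.5 weeks. In bulk tissue, fewer cells of a type and less RNA per cell cannot be told apart.

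Across the 12 libraries the members followed different courses. Of the core genes 9 of 14 rose at 4 weeks in cKO cord and 5 fell at 4.5 weeks. Of the regulatory genes 3 of 20 rose and 1 fell at 4 weeks, and 16 fell and 1 rose at 4.5 weeks. Of all genes tested, 20.1% rose and 17.2% fell at 4 weeks, and 33.3% rose and 32.6% fell at 4.5 weeks. Library sums of the 14 core genes in controls of 4 weeks were 1298, 1318 and 1191 CPM, and in cKO 1380, 1508 and 1500 CPM. At 4.5 weeks they were 1111, 1066 and 1116 CPM in controls and 956, 1006 and 1085 CPM in cKO. The cKO libraries of 4 weeks lay above all their controls, and those of 4.5 weeks overlapped theirs. For the 20 regulatory genes the sums at 4 weeks were 2199, 2217 and 2181 CPM in controls and 2240, 2329 and 2333 CPM in cKO. At 4.5 weeks they were 2126, 2071 and 2201 CPM in controls and 1631, 1682 and 1762 CPM in cKO. The groups did not overlap at either time, above the controls at 4 weeks and below them at 4.5 weeks.

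**Figure D1:**
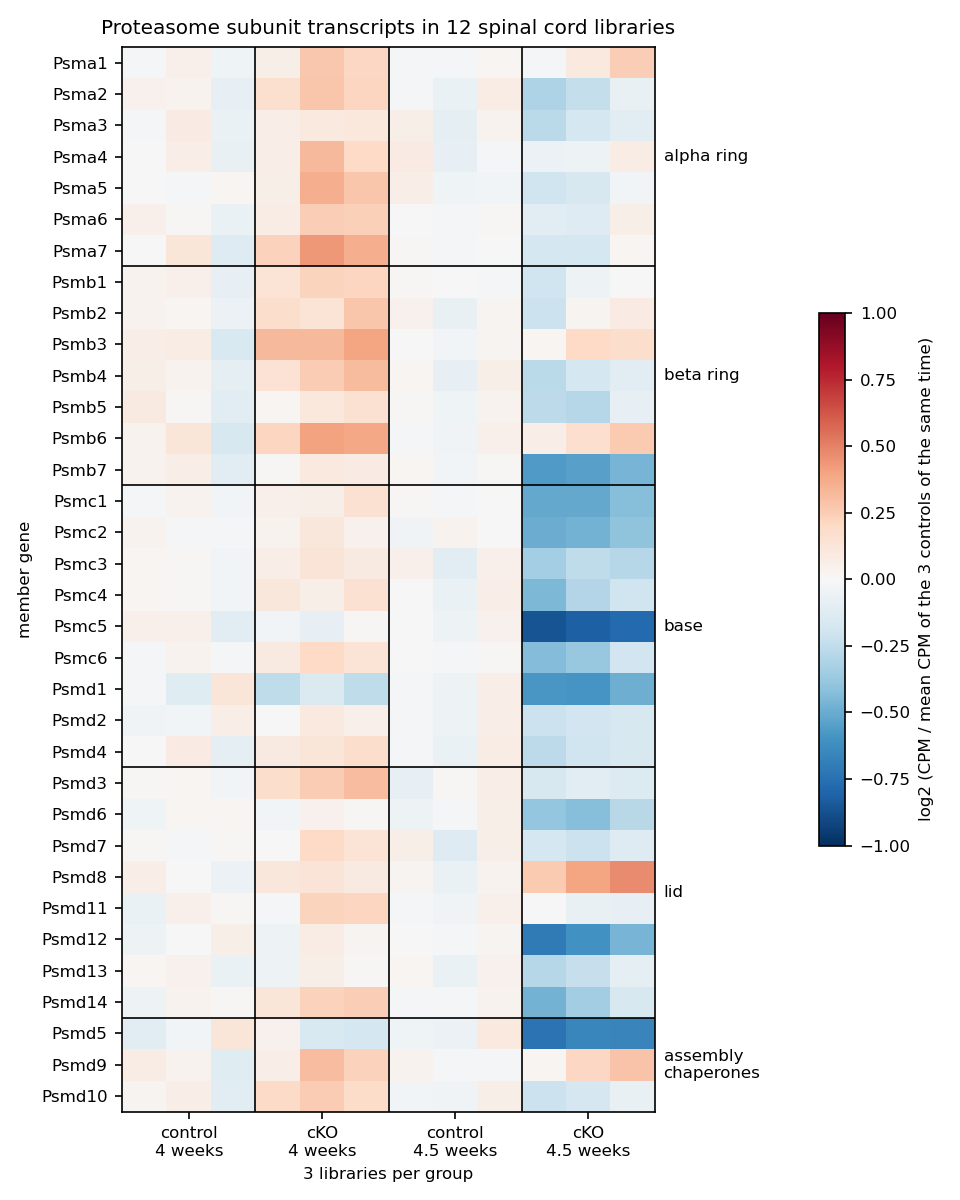
Each cell is the log2 ratio of a member's CPM in 1 library to the mean CPM of the 3 controls of the same time (colour bar), with 34 genes in rows by subgroup and 12 libraries in columns by group. Red core rows stand out in cKO at 4 weeks and blue base rows in cKO at 4.5 weeks, with Psmc5 the darkest and Psmd8 the reddest row at 4.5 weeks.

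Per kilobase of transcript, a scale on which genes can be compared, the ATPase gene Psmc5 had the highest level in controls of 4 weeks, at 215 ± 12.8 CPM per kilobase (SD, n = 3). The protease gene Psmb5 followed at 137 ± 9.63, the ATPase gene Psmc1 at 130 ± 3.19 and the protease gene Psmb6 at 125 ± 12.3 CPM per kilobase. The last 3 levels did not differ beyond their spread, while Psmc5 stood apart from them. The trypsin-like Psmb7 had 116 ± 7.27 CPM per kilobase. At the low end stood the 3 assembly chaperones, Psmd9 at 9.49 ± 0.66, Psmd10 at 11.6 ± 0.73 and Psmd5 at 11.7 ± 0.93 CPM per kilobase, the last 2 of which did not differ beyond their spread. The other 26 genes lay between 28.7 (Psmd11) and 112 (Psmb4) CPM per kilobase. Lengths are medians over each gene's protein-coding transcripts, so these levels depend on that choice.

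The comparison of cKO with control at 4 weeks asks which subunit transcripts had changed at the earlier time. Of the 14 core genes 9 were called higher and 0 lower, with a median log2 fold change of 0.20 and all 14 estimates above 0. Of all genes tested, 20.1% were called higher and 17.2% lower, with a median of 0.01. Calls here are adjusted p-values under 0.05 in the edgeR quasi-likelihood test, adjusted across the 19278 genes. Among the 8366 genes in the members' range of mean level 1665 were called higher and 2287 lower, and the median was -0.05. The called core genes were Psma2, Psma4, Psma5, Psma6 and Psma7 of the alpha ring and Psmb1, Psmb3, Psmb4 and Psmb6 of the beta ring. The uncalled ones were Psma1 (log2 fold change 0.18), Psma3 (0.09), Psmb2 (0.20), Psmb5 (0.10) and Psmb7 (0.07).

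The alpha subunit gene Psma7 held 87.3, 94.9 and 80.0 CPM in controls and 103, 118 and 113 CPM in cKO. Every cKO library lay above every control, and the log2 fold change was 0.35 ± 0.076 (SE, adjusted p = 0.00336), a rise of 27.1%. Psmb3, a structural beta subunit, held 70.1, 70.6 and 60.3 CPM in controls and 83.9, 83.7 and 88.0 CPM in cKO, again with no overlap (0.35 ± 0.068, adjusted p = 0.00172). The caspase-like Psmb6 held 102, 108 and 89.0 CPM in controls and 116, 132 and 130 CPM in cKO, also apart (0.34 ± 0.078, adjusted p = 0.0045). These 3 calls held when any 1 library was left out. The other called core genes had log2 fold changes of 0.19 to 0.24, each losing its call in 2 to 8 of the 12 fits without 1 library, and the count of 9 rested in part on single libraries: it was 4 without cKO library 2, 3 without cKO library 3 and 3 without control library 3 of 4 weeks. A term for sex rests on 1 library here, because sex varied within a group only in cKO of 4 weeks. In effect that fit sets cKO library 3 alone against the 3 controls, all with Y-linked counts. It cannot tell an effect from what sets that 1 mouse apart.

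The other 2 proteases did not pass the test at 4 weeks, and their difference from Psmb6 was not tested. Psmb5 held 111, 105 and 96.7 CPM in controls and 106, 113 and 116 CPM in cKO, and the groups overlapped (0.10, 95% interval -0.05 to 0.24, adjusted p = 0.305). Psmb7 held 138, 141 and 125 CPM in controls and 136, 144 and 143 CPM in cKO, also overlapping (0.07, 95% interval -0.05 to 0.19, adjusted p = 0.374).

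Of the 20 regulatory genes at 4 weeks, 3 were called higher (Psmd3, Psmd10 and Psmd14) and 1 lower (Psmd1), beside the same 20.1% and 17.2% of all genes, with a median of 0.10. Of the 6 ATPase genes 0 were called by edgeR, with estimates from -0.03 (Psmc5) to 0.14 (Psmc6), and 1 (Psmc6) had an unadjusted p under 0.05. The lid scaffold gene Psmd3 held 130, 131 and 127 CPM in controls and 146, 154 and 160 CPM in cKO. All cKO libraries exceeded all controls (0.25 ± 0.052, adjusted p = 0.00274), and the call held without any 1 library. The base scaffold gene Psmd1 moved the other way, with 128, 120 and 142 CPM in controls and 109, 117 and 109 CPM in cKO (-0.22 ± 0.066, adjusted p = 0.0198). The groups did not overlap, but the adjusted p of Psmd1 was 0.0851 without control library 3 and 0.074 without cKO library 3. The assembly chaperone Psmd10, known as gankyrin, held 16.7, 17.2 and 15.2 CPM in controls and 18.7, 19.5 and 18.6 CPM in cKO (0.21 ± 0.076, adjusted p = 0.0445). Its groups were apart, yet the call was lost, with adjusted p up to 0.155, when any library other than control library 2 of 4 weeks or cKO library 3 of 4.5 weeks was left out. Psmd14, the deubiquitinase, was called at an adjusted p of 0.0456 (0.20 ± 0.072), and lost that call, with adjusted p up to 0.145, in 9 of the 12 fits without 1 library. With DESeq2 size factors Psmd3 was the 1 regulatory gene called higher, and with libraries scaled by their totals only 14 were, under which the median of all genes was 0.10.

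**Figure D2:**
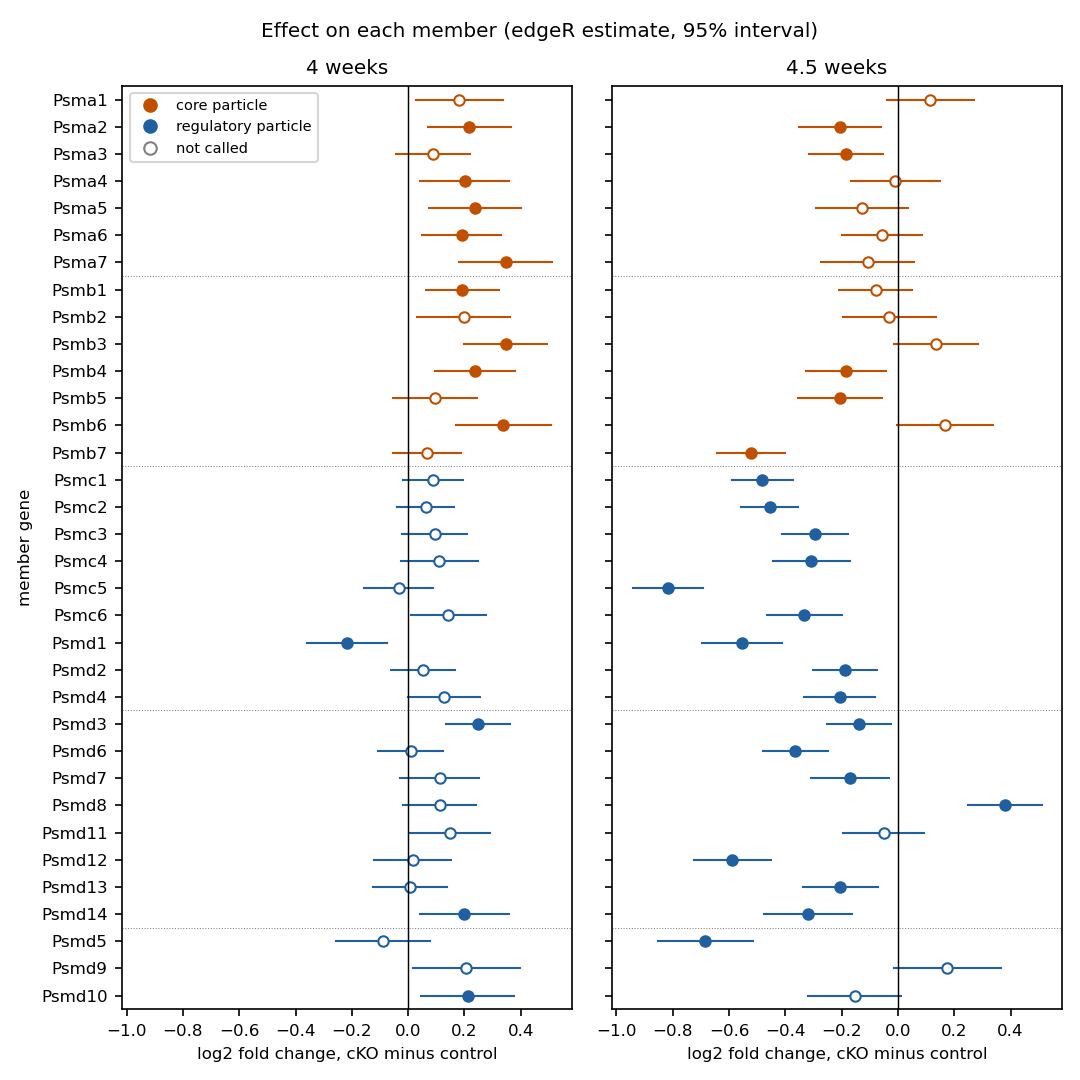
Points are edgeR log2 fold changes of cKO minus control for the 34 members at 4 weeks (left) and 4.5 weeks (right), with 95% intervals, filled where called. At 4 weeks the orange core points lie right of 0, and at 4.5 weeks 16 of the 20 blue regulatory points are filled left of 0, with Psmd8 alone filled on the right.

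The comparison at 4.5 weeks asks the same of the later time, with separate control mice. Of the 20 regulatory genes 16 were called lower and 1 higher, with a median log2 fold change of -0.30. Of all genes tested, 32.6% were called lower and 33.3% higher, with a median of 0.02. Of the 8366 genes in the members' range of level, 3755 were called lower and 2741 higher, with a median of -0.10. All 9 base genes that the rule kept were lower, including all 6 ATPases, whose median was -0.39. Of the 8 lid genes that it kept 6 were lower and 1 was higher. Psmd5 was the called chaperone. The 3 genes not called were Psmd9 (0.18), Psmd10 (-0.15) and Psmd11 (-0.05). The count of 16 lay between 14 and 16 when any 1 library was left out. Neuron marker transcripts summed to 10560 to 11000 CPM in controls and 2728 to 2888 CPM in cKO at this time, oligodendrocyte markers to 29970 to 30440 and 10680 to 11690 CPM, and microglia markers to 448.5 to 478.8 and 7983 to 8863 CPM. Their part in the result was not tested.

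Psmc5, the Rpt6 ATPase, fell the furthest of the members. It held 249, 240 and 256 CPM in controls and 136, 141 and 145 CPM in cKO. The groups lay far apart, and the log2 fold change was -0.82 ± 0.057 (adjusted p = 5.83e-08), a fall of 43.3%. Among the members it alone passed a test against a change of 1.5-fold. Its neighbours in the ATPase ring fell less: Psmc1 by 0.48, Psmc2 by 0.46, Psmc6 by 0.33, Psmc4 by 0.31 and Psmc3 by 0.29 on the log2 scale, and each of them had all 3 cKO libraries below all controls. The intervals of Psmc5 (-0.94 to -0.69) and of Psmc1 (-0.59 to -0.37), the second in the ring, did not meet, though the difference between the 2 genes was not tested. Psmd1, the base scaffold already lower at 4 weeks, held 156, 152 and 165 CPM in controls and 105, 105 and 112 CPM in cKO (-0.55 ± 0.065, adjusted p = 7.35e-06). The other scaffold, Psmd2, which binds shuttle factors, and the receptor Psmd4 fell by 0.19 and 0.21.

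In the lid, the scaffold gene Psmd12 held 93.0, 92.0 and 95.1 CPM in controls and 57.2, 61.3 and 67.8 CPM in cKO. All cKO libraries were lower, by 33.5% (-0.59 ± 0.063, adjusted p = 3.16e-06). Psmd6, Psmd14, Psmd13, Psmd7 and Psmd3 fell by 0.37, 0.32, 0.20, 0.17 and 0.14. Psmd3 lost its call, with adjusted p from 0.0505 to 0.122, without control library 2 or 3 or any cKO library of 4.5 weeks, and Psmd7 without control library 1 or 3 or cKO library 1 or 2. The lid gene Psmd8, which encodes Rpn12, went the other way (chosen for description after its values were seen). It held 73.2, 68.8 and 73.6 CPM in controls and 86.0, 94.6 and 99.7 CPM in cKO, with every cKO library above every control (0.38 ± 0.06, adjusted p = 1.04e-04). Its call held without any 1 library. The chaperone Psmd5 held 55.8, 55.3 and 61.7 CPM in controls and 34.5, 36.7 and 36.4 CPM in cKO, again without overlap and lower by 37.7% (-0.68 ± 0.077, adjusted p = 4.98e-06). The other base chaperones did not fall by the test, Psmd9 with an estimate of 0.18 ± 0.087 and Psmd10 of -0.15 ± 0.076.

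The core particle at 4.5 weeks had 5 genes called lower and 0 higher of 14, with a median of -0.09. Beside these stand 32.6% and 33.3% of all genes, and 3755 and 2741 of the 8366 in the members' range of level. By edgeR 0 core genes were higher at an unadjusted p under 0.05 as well, and 0 were higher by DESeq2 or limma-voom. One member stood apart from the rest of the core: the trypsin-like Psmb7 held 121, 117 and 120 CPM in controls and 80.8, 82.3 and 86.7 CPM in cKO. There was no overlap, and the fall was 30.4% (-0.52 ± 0.055, adjusted p = 2.71e-06). The chymotrypsin-like Psmb5 held 83.0, 80.0 and 84.5 CPM in controls and 68.9, 67.5 and 78.0 CPM in cKO (-0.21 ± 0.069, adjusted p = 0.018), with cKO lower throughout. The call of Psmb5 was lost without control library 3 or cKO library 1 or 2, with adjusted p from 0.0531 to 0.0738. The caspase-like Psmb6 held 77.9, 76.9 and 81.3 CPM in controls and 82.6, 88.4 and 94.1 CPM in cKO. Its cKO libraries were all higher, and the estimate of 0.17 ± 0.078 did not reach the threshold (adjusted p = 0.0754). The intervals of Psmb6 (0.00 to 0.34) and Psmb7 (-0.64 to -0.40) did not meet.

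In the alpha ring at 4.5 weeks Psma3 and Psma2 were called lower. Psma3 held 84.9, 76.4 and 83.4 CPM in controls and 67.5, 72.2 and 75.6 CPM in cKO, with the highest cKO library just under the lowest control (-0.19 ± 0.061, adjusted p = 0.0167). Psma2 held 84.9, 82.0 and 90.3 CPM in controls and 69.2, 72.6 and 81.4 CPM in cKO (-0.21 ± 0.068, adjusted p = 0.0169), also just apart. The structural beta gene Psmb4 fell by 0.18 (adjusted p = 0.0256). Calls of Psma3 and Psma2 were each lost in 3 and that of Psmb4 in 4 of the fits without 1 library. The remaining 9 core genes had estimates from -0.13 (Psma5) to 0.17 (Psmb6). The core count of 5 was 1 without cKO library 1 or control library 3 of 4.5 weeks, 2 without cKO library 2 and 3 without control library 1. Psmb7 was called in each of these fits. With libraries scaled by their totals only, 3 core genes were called higher and 1 lower.

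**Figure D3:**
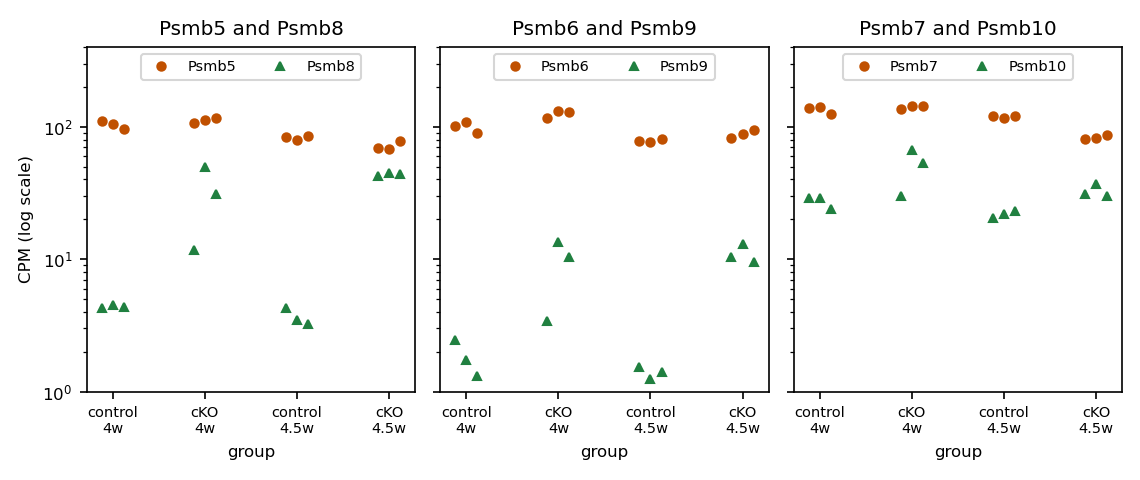
Each point is the CPM of 1 library on a log axis, in 4 groups, for each constitutive protease gene (circles) and its immunoproteasome counterpart (triangles). Psmb5, Psmb6 and Psmb7 stay between 67.5 and 144 CPM in all libraries, while Psmb8 goes from 3.25 to 4.52 CPM in controls to 11.8 to 49.3 CPM in cKO.

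Whether the cKO effect differed between the times was tested directly, as the effect at 4.5 weeks minus the effect at 4 weeks. Of the 14 core genes 9 had a lower effect at the later time, and of the 20 regulatory genes 16 had a lower and 1, Psmd8, a higher effect, with medians of -0.27 and -0.38. Of all genes tested, 21.9% were called lower and 18.7% higher in this test, with a median of -0.03. Of the 8366 genes in the members' range of level, 2773 were called lower and 2045 higher. Psmc5 had the largest difference (-0.78 ± 0.081, adjusted p = 9.38e-06), since its estimate at 4 weeks was -0.03 ± 0.057. Psmb7 led the beta ring (-0.59 ± 0.078, adjusted p = 6.78e-05), Psmd12 the lid (-0.61 ± 0.089, adjusted p = 0.000156) and Psmd5 the chaperones (-0.59 ± 0.109, adjusted p = 0.000818). Psma2 led the alpha ring by p (-0.42 ± 0.095, adjusted p = 0.00334): it was called higher at 4 weeks, with 93.4, 92.7 and 85.6 CPM in controls and 101, 110 and 105 CPM in cKO (0.22 ± 0.067, adjusted p = 0.023), and lower at 4.5 weeks. Psmb4, Psmd3 and Psmd14 had the same pair of calls, and Psmd1 was called lower at both times. For Psma2 the call at 4 weeks was lost without control library 3 or cKO library 2 or 3, and that at 4.5 weeks without control library 3 or cKO library 1 or 2, while the test of the difference passed in every such fit. Psma1, Psmb2, Psmd9 and Psmd11 were called at neither time, nor was the difference of their effects.

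The 2 control groups also differed from each other, which sets the level against which each effect was read. From 4 to 4.5 weeks 5 core genes were called lower, Psmb1, Psmb3, Psmb4, Psmb5 and Psmb6, with log2 changes of -0.20 to -0.34. All 14 core estimates were below 0, with a median of -0.18. Of the 20 regulatory genes 3 were called lower (Psmc5, Psmd4 and Psmd8) and 1 higher (Psmd1), with a median of -0.03. Of all genes, 7.21% were called lower and 9.53% higher. Of the 5 core and 3 regulatory genes called lower, 0 remained with a trend in transcript length removed from each library. That fit called 476 of all 19278 tested genes lower, against 1390 in the main fit, and the regulatory median in it was 0.03. A replicate block or a sex term also left 0 of these calls. Those 2 fits called 0 genes lower in the whole series, so no lower call could remain and they do not bear on the members. The 3 controls of 4 weeks had Y-linked counts and those of 4.5 weeks Xist counts, so time and sex cannot be told apart in these groups. Psmb6 thus lay at 99.7 ± 9.78 CPM (SD, n = 3) in controls of 4 weeks, 126 ± 8.75 in cKO of 4 weeks, 78.7 ± 2.34 in controls of 4.5 weeks and 88.4 ± 5.76 CPM in cKO of 4.5 weeks. The control calls did not withstand every library: leaving out 1 at a time gave 2 to 8 core genes called lower, with 2 when control library 1 of 4 weeks was left out, 3 when control library 2 of either time was, and 8 without cKO library 1 of 4 weeks. For the regulatory genes called lower the range was 0 to 5, with 0 without control library 1 of 4 weeks or 2 of 4.5 weeks, 1 without control library 2 of 4 weeks and 5 without cKO library 1 of 4 weeks. Psmd1 lost its call without control library 1 or 2 of 4 weeks or 3 of 4.5 weeks.

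The balance of the particles was described by the mean log2 CPM of the 14 core genes minus that of the 20 regulatory genes in each library. It was -0.03, -0.03 and -0.14 in controls and 0.02, 0.08 and 0.09 in cKO at 4 weeks. At 4.5 weeks it was -0.20, -0.23 and -0.25 in controls and -0.06, -0.04 and 0.00 in cKO. In both comparisons all cKO libraries lay above all controls, by 0.13 at 4 weeks and 0.19 at 4.5 weeks on the log2 scale. At 4 weeks the core had the higher median fold change (0.20 against 0.10), and at 4.5 weeks the regulatory particle had the lower one (-0.30 against -0.09), so the shift had the same sign at both times. Without the 3 assembly chaperones the corresponding means were -0.37 ± 0.066 and -0.23 ± 0.031 (SD, n = 3) at 4 weeks and -0.52 ± 0.022 and -0.31 ± 0.03 at 4.5 weeks. No test was made of this score, since the members were chosen with results known.

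**Figure D4:**
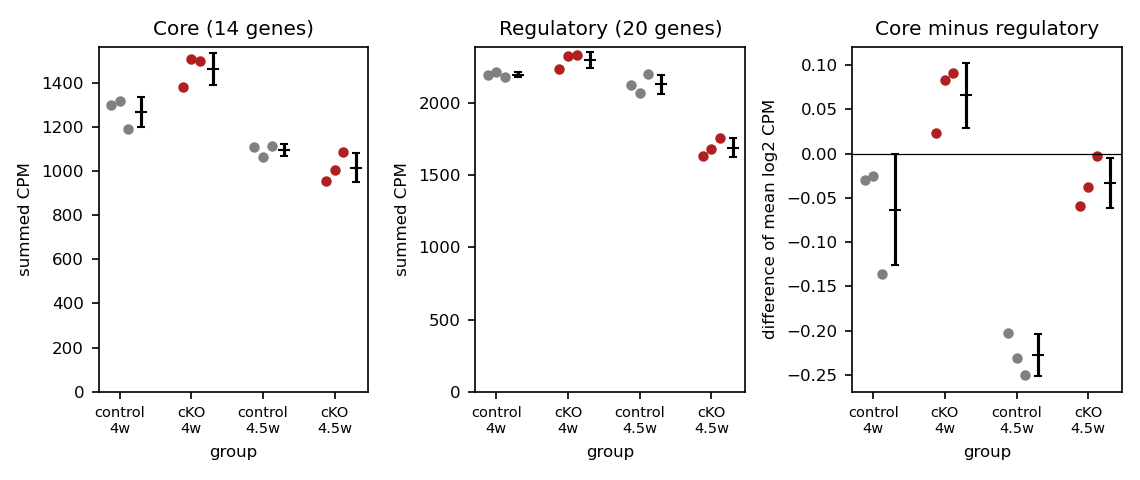
Points are libraries by group, in grey for control and red for cKO, with the group mean ± SD (n = 3) beside them: the summed CPM of the 14 core genes (left), of the 20 regulatory genes (middle) and the core minus regulatory difference of mean log2 CPM (right). The cKO libraries of 4.5 weeks are low in the middle panel, and in the right panel cKO lies above control at each time.

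Transcript length differed between the particles and went with the fold changes. The core transcripts had a median length of 1120.25 bases and the regulatory ones of 1613.5 bases. Over the 34 members, the correlation of log2 fold change with log2 length was -0.51 at 4 weeks, -0.36 at 4.5 weeks and 0.71 between the control groups. Over 18806 tested genes with a length the same correlations were -0.13, -0.075 and 0.23. These are descriptions over genes that share the same libraries. In 5 length classes of nearly equal size, the shortest genes of the series had a median of 0.15 at 4 weeks and the longest of -0.12, and between the controls -0.22 and 0.20. With a trend in transcript length removed from each library, the core minus regulatory shift was 0.06 at 4 weeks and 0.14 at 4.5 weeks. The core count at 4 weeks was then 5, and Psma7, Psmb3, Psmb6 and Psmd3 kept their calls. Within the core alone the correlation of fold change with length was -0.26 at 4 weeks, -0.38 at 4.5 weeks and 0.56 between the controls. Within the regulatory particle alone it was -0.34, -0.12 and 0.62.

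**Figure D5:**
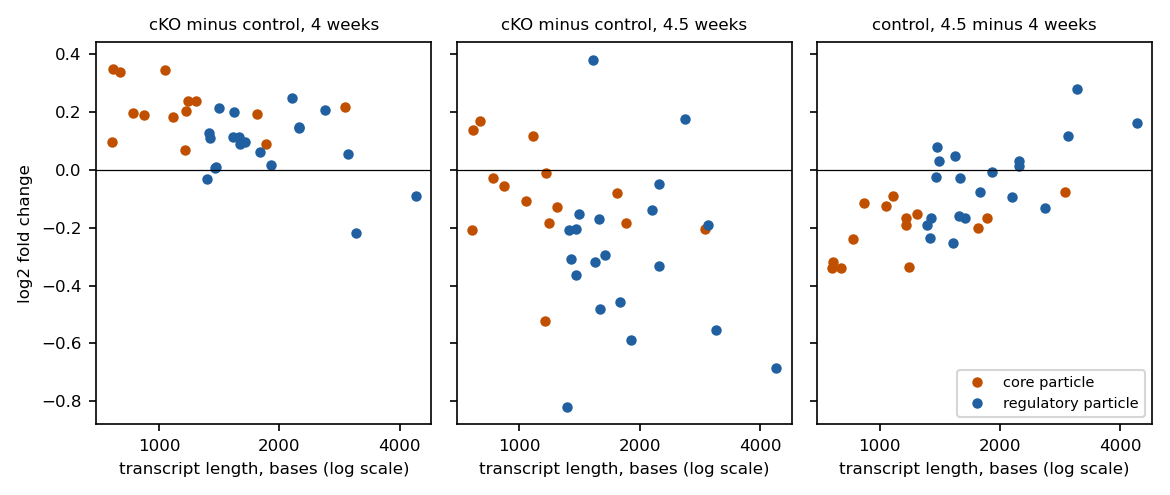
Each point is a member, with transcript length in bases on a log axis and the log2 fold change on the vertical axis, for cKO minus control at 4 weeks (left), at 4.5 weeks (middle) and control at 4.5 minus 4 weeks (right). The shorter core genes lie high in the left panel and low in the right panel, where r = 0.71 over the 34 members.

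Within the family, likeness was measured by Pearson correlation of log2 CPM over the 12 libraries, as a description. Most core genes followed the mean of the other core genes, led by Psmb1 (r = 0.992) and Psmb4 (0.984). Psmb7 was the exception among the proteases, closer to the regulatory mean (0.979) than to the core mean (0.806). The ATPases followed the regulatory mean with r from 0.944 (Psmc5) to 0.976 (Psmc1). The regulatory genes least like their particle were Psmd8 (-0.213), Psmd9 (0.227) and Psmd1 (0.288). Several regulatory genes were closer to the core mean than to their own, so the particles were not cleanly separated. They were Psmd3 (0.943 against 0.832), Psmd4 (0.959 against 0.905), Psmd7, Psmd8, Psmd9, Psmd10 and Psmd11. Outside the family and the pathway lists, the 10 genes most like the mean of all members were Ran (0.991), Ndufb6, Eef1e1, Cops6, Ackr1, Nme1, Denr, 1110004E09Rik, Snrpd3 and Pfdn1 (0.979).

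Genes that work beside the constitutive proteasome moved in several directions. The counts of each list stand beside the 20.1% of all genes called higher and 17.2% lower at 4 weeks, and the 33.3% and 32.6% at 4.5 weeks. All 3 immunoproteasome genes were called higher at both times. Psmb8, the inducible counterpart of Psmb5, held 4.27, 4.52 and 4.35 CPM in controls and 11.8, 49.3 and 31.3 CPM in cKO at 4 weeks (2.82 ± 0.373, adjusted p = 9.30e-05). At 4.5 weeks it held 4.27, 3.45 and 3.25 CPM in controls and 42.8, 44.6 and 43.7 CPM in cKO (3.58 ± 0.382). All cKO libraries were higher, with cKO library 1 of 4 weeks the lowest of them. Psmb9 rose by 2.32 and 2.98 and Psmb10 by 0.87 and 0.58, and Psmb10 lost its call at 4.5 weeks without any 1 control or cKO library 1 or 2 of that time. Summed over the 12 listed interferon-induced genes, cKO library 1 of 4 weeks also had the lowest level of the 6 cKO libraries, 164.6 CPM against 1424 CPM at most and 83.67 to 117.2 CPM in controls.

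Of 5 alternative caps and inhibitors, 3 were higher at 4 weeks and 3 higher and 2 lower at 4.5 weeks. Psme1, a subunit of the interferon-inducible cap PA28, rose by 0.93 ± 0.165 and 1.49 ± 0.167. Psme4, the cap PA200, rose by 0.29 ± 0.061 and 0.46 ± 0.061, and Psme3, the nuclear cap subunit, was not called at 4 weeks and fell by 0.31 at 4.5 weeks. Of 5 chaperones that assemble the core, 3 were higher at 4 weeks, and 1 higher and 2 lower at 4.5 weeks. Both falls, of Psmg1 and Psmg2, lost their calls without cKO library 2 of 4.5 weeks (adjusted p = 0.0811 and 0.0582), and the rise of Psmg3 at 4 weeks was lost in 11 of the 12 fits without 1 library. Psmg4 rose by 0.99 and 0.76, while Pomp, which matures the core, rose by 0.29 ± 0.066 at 4 weeks and was not called at 4.5 weeks (-0.06).

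Of 10 factors that bind the proteasome, 3 were higher and 2 lower at 4 weeks, and 3 higher and 6 lower at 4.5 weeks. Adrm1 and Sem1, subunits outside the symbol rule, were called by edgeR at 4 weeks (adjusted p = 0.00832 and 0.000571). At 4.5 weeks Adrm1 was not called by edgeR (adjusted p = 0.2655), while Sem1 was (1.44e-05). The 2 lower calls at 4 weeks, Ecpas and Ube3c, were both lost without cKO library 2, cKO library 3 or control library 3 of 4 weeks, with adjusted p from 0.063 to 0.201. Both calls also ended with the sex term, which rests on cKO library 3 alone at 4 weeks. The deubiquitinase Usp14 held 129, 134 and 133 CPM in controls and 68.4, 72.0 and 82.4 CPM in cKO at 4.5 weeks, a fall of 0.83 ± 0.067 that left the groups apart. The deubiquitinase Uchl5 fell by 0.82 and the ubiquitin ligase Ube3c by 0.84 at that time. Of 6 shuttle factors, which carry ubiquitinated proteins to the cap, 3 were lower at 4 weeks and 5 at 4.5 weeks, with 1 higher. Ubqln2 fell by 0.46 at 4 weeks and 0.94 at 4.5 weeks, and Ubqln1 by 0.22 and 0.52. Of 7 genes of the p97 unfolding machinery 1, Nsfl1c, was higher at 4 weeks, and 3 were lower at 4.5 weeks, with Vcp, the p97 ATPase itself, lower by 0.28.

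Genes that control proteasome transcription, or partner with those that do, split. Nfe2l1, which encodes NRF1, held 429, 409 and 475 CPM in controls and 374, 390 and 385 CPM in cKO at 4 weeks. The groups were apart (-0.19 ± 0.062, adjusted p = 0.0283), although the call was lost without control library 1 or 3 or cKO library 2 or 3, with adjusted p up to 0.111. At 4.5 weeks Nfe2l1 held 484, 492 and 525 CPM in controls and 281, 284 and 271 CPM in cKO (-0.84 ± 0.063), lower in all cKO libraries. Nfe2l2, which encodes NRF2 and binds the same element, rose by 0.77 and 1.77, and its small partner Maff by 2.47 and 3.45. In all, of 8 such genes 3 were higher and 2 lower at 4 weeks, and 5 were higher and 3 lower at 4.5 weeks. Of 6 genes for ubiquitin and its activating enzymes, 3 were higher and 1 lower at 4 weeks and 2 higher and 3 lower at 4.5 weeks. At 4 weeks the fall of Uba1 was lost in 10 of the 12 fits without 1 library. Rps27a, which encodes ubiquitin fused to a ribosomal protein, rose by 0.46 at 4 weeks and 0.91 at 4.5 weeks, and the activating enzyme Uba1 fell by 0.47 at 4.5 weeks.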

How the data were processed

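Poly(A) mRNA of whole spinal cord was sequenced for 12 mice. For either time the authors deposited a table of RSEM expected counts by gene. Per the submitters' processing notes, STAR and RSEM were used with build mm39; versions and annotation are not given in the sources used here. Of the deposited expected counts, 3.25% to 3.81% per library were not whole. They were rounded and analysed with edgeR 4.0.16 in R 4.3.3 (limma 3.58.1). The filter on low counts with 4 groups kept 19278 genes, scaling was by TMM, and all 12 libraries entered 1 quasi-likelihood model. Benjamini-Hochberg adjustment ran across all tested genes, and CPM use the scaled library sizes. With 3 mice a group, each p-value sets a change against the spread between these mice. That spread is estimated over all 12 libraries, with information shared across genes.

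The kit does not mark strand, so overlapping antisense genes cannot be told apart. Rows named as pseudogenes of Psmb5, Psmb6 and Psmb7 held at most 0.197 CPM. Pseudogenes under other names were not covered, and reads of near-identical copies remain uncertain. GENCODE M21 supplied transcript lengths and nothing else. On simulated data for the contrast at 4 weeks with 18242 genes, 8 of 50 changes of 0.3 on the log2 scale were called. Of changes of 0.5, 36 of 50 were called, and of 1, 49 of 50. Only 50 genes were changed at each size, while 20.1% and 17.2% of genes were called in the data. The adjustment was therefore stricter in the simulation, and its shares do not measure how many small changes the data miss.

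The members and lists were chosen with earlier results of these data known. Genes given library by library were the 3 proteases, the member with the smallest p of each subgroup at each time and for the difference, and at most 3 called genes of each pathway list; others are marked, and 1 gene the rule chose is not reported here. Paaf1 was on a list and had no matched row. Alternatives were DESeq2 1.42.0, limma-voom, other scalings and filters, each time alone, a replicate block, a sex term, a length trend, a 1.5-fold threshold and each library left out. Leaving out both cKO libraries with Xist at 4 weeks was chosen after seeing the data. Sex varied within a group only in cKO of 4 weeks, so the sex term in effect sets cKO library 3 against the controls of that time.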

Additional observations from a re-analysis of the deposited data

Results flagged for a closer look

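The effect of the genotype differed between 4 and 4.5 weeks, by edgeR's test of the difference with adjustment over all genes, in 26 of the 34 members, 25 with a lower and 1 with a higher effect at the later time. Of all genes tested, 21.9% had a lower and 18.7% a higher effect. The values are the effect at 4.5 weeks minus that at 4 weeks on the log2 scale.

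In the ATPase ring they were -0.78 (Psmc5), -0.57 (Psmc1), -0.52 (Psmc2), -0.48 (Psmc6), -0.42 (Psmc4) and -0.39 (Psmc3). In the rest of the base they were -0.34 (Psmd1), -0.33 (Psmd4) and -0.24 (Psmd2). In the lid they were -0.61 (Psmd12), -0.52 (Psmd14), -0.39 (Psmd3), -0.37 (Psmd6) and -0.28 (Psmd7), and 0.27 for Psmd8, the 1 member with a higher effect at the later time. Among the chaperones they were -0.59 (Psmd5) and -0.36 (Psmd10). In the beta ring they were -0.59 (Psmb7), -0.42 (Psmb4), -0.30 (Psmb5) and -0.27 (Psmb1). In the alpha ring they were -0.45 (Psma7), -0.42 (Psma2), -0.37 (Psma5), -0.27 (Psma3) and -0.25 (Psma6). The adjusted p lay between 9.38e-06 (Psmc5) and 0.0491 (Psma6).

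Psmd8 lost its call without control library 1 of 4 weeks (adjusted p = 0.0661), cKO library 3 of 4 weeks (0.0582), control library 2 (0.0679), cKO library 2 (0.0526) or cKO library 3 (0.0568) of 4.5 weeks. Without 1 library at a time, Psma6 lost its call in 10 of 12 fits, Psmb5 and Psmd7 in 5 each, and Psma3 and Psmd2 in 2 each. The 2 control groups differ in sex, and sex varied within a group only in cKO of 4 weeks. A sex term therefore leaves cKO library 3 alone against the controls at 4 weeks, and cannot tell an effect from what sets that 1 mouse apart. That fit ended the calls of Psmb1 (difference -0.30), Psma3 (-0.29), Psmd8 (0.29), Psmd7 (-0.30), Psma6 (-0.30), Psmd2 (-0.24), Psmd1 (-0.30) and Psmd10 (-0.34).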

How the results depend on the processing

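The fall of the regulatory particle at 4.5 weeks numbered 11 to 17 genes under every alternative run except the test against a 1.5-fold change, where 1, Psmc5, was left. That threshold left 0 calls in the other counts, and 1 of 16 regulatory falls in the difference. Calls over all genes changed with these settings too. Higher calls at 4 weeks were 3866 in the main fit and 3390 with the replicate block. They were 2634 with the sex term, 4011 with the length trend removed, 4877 with library totals and 1357 at the 1.5-fold threshold. Lower calls at 4.5 weeks were 6283, and 5622 with library totals. Between controls lower calls were 1390, and 1809 with upper quartile scaling, 1825 with library totals and 476 with the length trend removed. Core calls higher at 4 weeks (9) numbered 5 with the replicate block, 4 with the sex term, 5 with the length trend removed and 5 without both Xist cKO libraries (3 to 11 with 1 library left out). Regulatory calls higher at 4 weeks (3) numbered 14 with library totals only and 1 with DESeq2 size factors, no filter, the DESeq2 test, the sex term, the length trend, control libraries 1 and 2 of 4.5 weeks left out, or no Xist cKO libraries (1 to 4), and the lower call (1) was 0 with library totals, the sex term or no Xist cKO libraries (0 to 1). At 4.5 weeks, core calls higher (0) were 3 with library totals, 1 with a 1 CPM filter and 1 with each time alone (0 to 2), core calls lower (5) were 1 with library totals (1 to 5), and regulatory calls higher (1) were 2 with library totals (1 to 2). In the difference, core calls lower (9) were 5 without control libraries 1 and 2 of 4.5 weeks (6 to 10), and the 1 higher regulatory call was 0 there, with the sex term and without Xist cKO libraries (0 to 1). Between controls, core calls lower (5) were 8 with upper quartile scaling, library totals or no Xist cKO libraries and 0 with the block, the sex term, the length trend or without those controls (2 to 8). Regulatory calls lower (3) were 5 with upper quartile scaling or library totals and 0 in the same 4 fits (0 to 5), and the higher call (1) was 2 with the length trend and 0 with the block, the sex term or without those controls (0 to 1). The core minus regulatory shift of 0.13 at 4 weeks was 0.0585 with the length trend removed, and that of 0.19 at 4.5 weeks was 0.14, or 0.16 from medians over members. The regulatory median between controls, -0.03, was 0.0336 with the length trend removed. Between controls the sex term left 0 and the block 1 of all 19278 tested genes called, so neither could keep a lower call in any list. The fit without control libraries 1 and 2 leaves 1 control at 4.5 weeks, so its lost calls do not bear on the members either. At 4 weeks and in the difference, the sex term and the fit without Xist cKO libraries both rest on cKO library 3 of 4 weeks alone. The labels do not say whether same-numbered mice were paired. Deviations of same-numbered mice correlated at -0.165 to 0.057, and mice did not all correlate best with their own number. With 3 mice a group these correlations cannot decide whether they were paired. Beyond fewer samples or a stricter threshold, the cause was not tested. The members all passed 1 CPM in all libraries, and whether depth limited the calls of small changes was not tested.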
